A study of Mus musculus with 6 samples.

Results

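Parathyroid hormone (PTH), vitamin D and extracellular calcium are the main hormonal controls of bone and mineral, and 6 genes at the entry points of these systems were followed here in osteoblasts (OBs). The 6 genes are *Pth1r*, *Pthlh*, *Vdr*, *Cyp24a1*, *Cyp27b1* and *Casr*. They were found by symbol among the 23284 genes listed for each sample. All 6 were listed in every sample, *Cyp24a1* with a value of 0 in replicate 2 of day 14. In ECFP+ OBs of BMP-2-induced ectopic bone, the PTH receptor gene *Pth1r* was among the more abundant transcripts and the vitamin D receptor gene *Vdr* followed it. The ligand gene *Pthlh* was low in most samples, and *Cyp24a1*, *Cyp27b1* and *Casr* each rested on 18 reads or fewer in any sample. None of the 6 genes passed the test between day 10 and day 14 after adjustment over all genes.

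PTH from the parathyroid gland and PTH-related protein made within tissues act on the same cell surface receptor, which signals mainly through the stimulatory G protein, cyclic AMP and protein kinase A, and also through Gq proteins. OBs and their descendants are the main bone cells that carry this receptor. Vitamin D is activated by the enzyme CYP27B1, the active hormone binds the nuclear receptor VDR, VDR pairs with a retinoid X receptor on DNA, and the induced enzyme CYP24A1 breaks the hormone down again. The calcium-sensing receptor, known best from parathyroid and kidney cells, couples extracellular calcium to Gq and inhibitory G proteins.

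The samples were ECFP+ OBs sorted from *Col2.3*-ECFP mice bearing ectopic bone. There were 3 samples from day 10 and 3 from day 14 after a collagen sponge had been implanted. According to the methods, the mice were male and 12 to 16 weeks old, and each sponge carried 2.5 μg of BMP-2. In these mice a type I collagen promoter drives ECFP, so that the sort marks cells in which this promoter is active, and CD45+ and dead cells were gated out. No PTH or vitamin D treatment is named for these samples, so the groups differ in time and in tissue digestion. Digestion with collagenase was done 1 time on day 10 and 2 times on day 14, and the effects of the day and of the digestion cannot be told apart. The labels call the samples biological replicates without saying how many mice each came from, and the p-values measure the spread between these samples. The titles put all 3 later samples on day 14, which was used here, while the free-text descriptions of replicates 1, 2 and 3 name days 14, 15 and 16.

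Levels are given in FPKM, a count of sequenced fragments scaled by transcript length and sequencing depth, which allows genes of different length to be compared. Between 4556921 and 7788491 mapped reads per sample were estimated from the steps between low FPKM values. For *Pthlh*, *Cyp24a1*, *Cyp27b1* and *Casr*, a length was fitted to each gene so that its values fell on whole multiples of a single read. A length was taken only where this held within 0.1 in all 6 samples, so the fit is no independent check. The reads behind these values are given as estimates. The reads of *Pth1r* and *Vdr* are approximate. Whole multiples were sought only at low read numbers, so the length of the longest annotated transcript was used for these genes. OB transcripts were present in every sample, with *Col1a1* between 14151 and 34157 FPKM and all 9 OB markers above 0. The sort itself selects for activity of a type I collagen promoter, so *Col1a1* is no independent check of identity. The lowest OB marker value was 0.979 FPKM, that of *Dlx5* in replicate 1 of day 14. Replicate 2 of day 14 stood apart from the other samples of its day and lay near day 10 in OB genes. Its 13 chondrocyte markers summed to 1116 FPKM, above the 436 to 877 FPKM of the day 10 samples. Most of this sum came from the cartilage collagen gene *Col2a1*. Single markers differed, since *Acan* (45.8 FPKM) was also above the day 10 range, while *Col9a1* (17.6 FPKM) and *Col11a2* (136 FPKM) were within it. The *Col2a1* of this sample was 688 FPKM. The other day 14 samples had 12.1 FPKM (replicate 1) and 8.75 FPKM (replicate 3) of *Col2a1*, and those of day 10 had 189 to 373 FPKM. The members and the counts of the pathway lists are therefore also given without replicate 2 of day 14.

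The sequences just upstream of the annotated start sites are shown for the receptor genes *Pth1r* and *Vdr*, whose levels were the highest and ran alike across samples. *Pth1r* has 3 start sites in the RefSeq annotation of GRCm38.p6, and gene-level FPKM does not say which of them was used. Each sequence covers the 250 bases before a start, written 5′ to 3′ on the strand of the gene, and capitals mark the GC box GGGCGG or its reverse complement CCGCCC. All windows lie on the minus strand. The windows before start 3 of *Pth1r* and before *Pthlh* were searched in the same way but are not shown, because they overlap first exons of other annotated transcripts. The shown windows of *Pth1r* start 2 and of *Vdr* also lie inside the spans given below for these genes.
Pth1r, start 1, chr9:110747146-110747395: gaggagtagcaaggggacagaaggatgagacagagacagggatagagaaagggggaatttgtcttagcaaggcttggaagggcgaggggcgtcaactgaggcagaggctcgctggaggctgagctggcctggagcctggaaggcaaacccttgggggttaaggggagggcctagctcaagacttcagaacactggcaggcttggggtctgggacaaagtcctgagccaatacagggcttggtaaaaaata
Pth1r, start 2, chr9:110743687-110743936: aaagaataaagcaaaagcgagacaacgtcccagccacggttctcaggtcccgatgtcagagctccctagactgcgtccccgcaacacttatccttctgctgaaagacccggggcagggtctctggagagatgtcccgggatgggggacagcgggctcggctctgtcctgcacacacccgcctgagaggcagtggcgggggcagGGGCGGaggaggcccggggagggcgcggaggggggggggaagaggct
Vdr, chr15:97908297-97908546: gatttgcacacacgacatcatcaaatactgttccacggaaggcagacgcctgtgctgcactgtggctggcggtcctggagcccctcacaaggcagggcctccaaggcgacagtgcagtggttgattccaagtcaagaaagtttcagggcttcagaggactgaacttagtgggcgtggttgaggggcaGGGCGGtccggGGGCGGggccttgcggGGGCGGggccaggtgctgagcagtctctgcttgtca

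The GC box was found 4 times before start 3 of *Pth1r*, 1 time before start 2 and not before start 1, 3 times before *Vdr* and 4 times before *Pthlh*. It is common, since 32.7% of the 32851 windows of the same length in the annotation hold it on either strand. The G and C content was 56.0%, 65.6% and 70.4% before the 3 starts of *Pth1r*, 61.2% before *Vdr* and 75.2% before *Pthlh*. The RUNX site TGTGGT (14.0% of all windows), the cyclic AMP response element TGACGTCA (1.55%) and the nuclear receptor half-site AGGTCA (14.0%) were searched on both strands and had no match in any of these windows.

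The first comparison concerned the receptor for PTH and PTH-related protein. *Pth1r* lies on chromosome 9 from 110722085 to 110747145 in mm10 and is protein-coding. It was at 248, 166 and 135 FPKM in day 10 replicates 1, 2 and 3, and at 72.7, 173 and 35.6 FPKM in day 14 replicates 1, 2 and 3. Replicates 1 and 3 of day 14 were below all day 10 samples, while replicate 2 lay within their range, so the days overlapped. The mean was 183 ± 58.4 FPKM (SD, n = 3) on day 10 and 93.8 ± 71.1 FPKM (SD, n = 3) on day 14. Among the 23284 genes, *Pth1r* ranked between 207 and 406 on day 10, and 768, 356 and 1754 in day 14 replicates 1, 2 and 3. About 525 to 2539 reads lay behind these values, so counting error was small beside the spread between samples.

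On the scale of log2(FPKM + 0.1), the day 14 level of *Pth1r* minus its day 10 level was −1.21 (standard error 0.51, 95% interval −2.37 to −0.05). The unadjusted p from limma was 0.0429, and the adjusted p over 19526 genes was 0.480. The two-sided exact permutation test gave p = 0.3, where 3 samples against 3 allow no p under 0.1. In this fit no other member had an unadjusted p under 0.05, and 10.0% of all genes tested had such a p. The unadjusted p of *Pth1r* from limma was 0.101 without the variance trend, 0.118 without the filter on low genes and 0.0552 with the filter at a mean of 1 FPKM, and it was above 0.05 in 4 of the 6 fits that left out a sample. Without replicate 2 of day 14 the difference was −1.80 (adjusted p = 0.0783 from limma), and without replicate 3 of day 14 it was −0.66 (adjusted p = 0.825 from limma). In sorted bulk samples, fewer *Pth1r*-expressing cells and less *Pth1r* RNA per cell cannot be told apart, and this holds for the other genes as well.

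**Figure D1:**
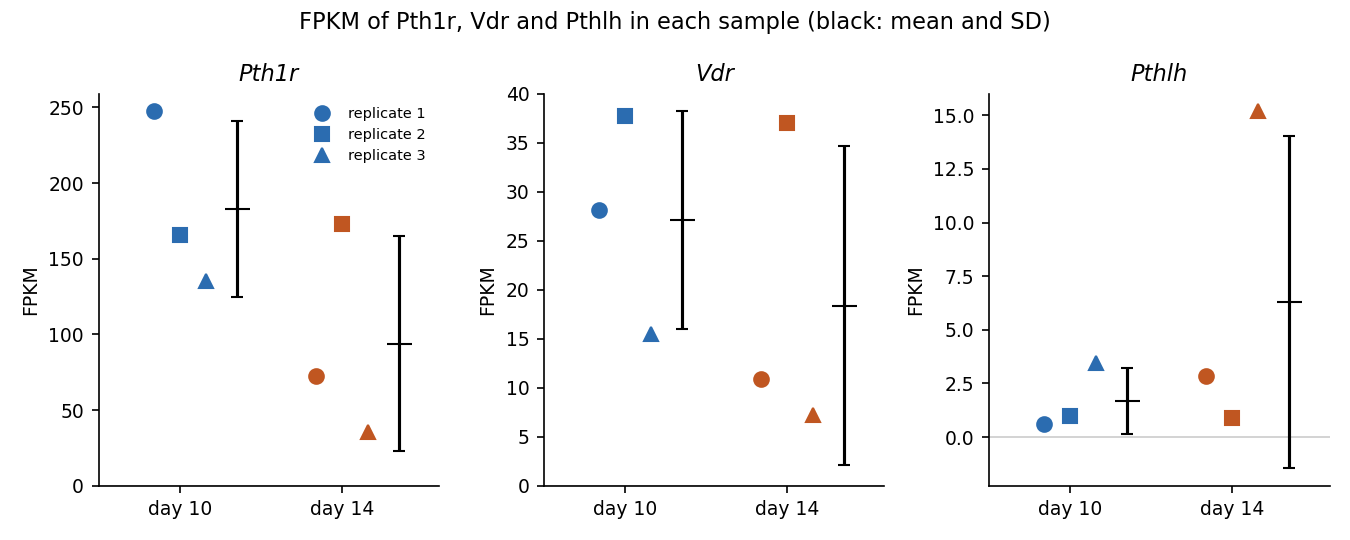
FPKM (linear vertical axis, a separate scale for each gene) of *Pth1r*, *Vdr* and *Pthlh* in the 3 samples of day 10 and the 3 of day 14. Each marker is a sample, marker shape gives the replicate, and the black bars are the mean and SD. Replicate 2 of day 14 (square) lies within the day 10 range for all 3 genes, and replicate 3 of day 14 (triangle) has the lowest *Pth1r* (35.6 FPKM) and *Vdr* (7.16 FPKM) and the highest *Pthlh* (15.2 FPKM).

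The ligands were below their receptor in all 6 samples, though *Pthlh* came near it in replicate 3 of day 14. *Pthlh* encodes PTH-related protein, a locally acting ligand known from the growth plate, where it holds back chondrocyte hypertrophy. It lies on chromosome 6 from 147252101 to 147264183 in mm10. *Pthlh* was at 0.626, 0.975 and 3.44 FPKM in day 10 replicates 1, 2 and 3, which were 4, 7 and 35 reads. On day 14 it was at 2.85, 0.904 and 15.2 FPKM, which were 17, 7 and 140 reads. The highest value was that of replicate 3 of day 14, the sample with the lowest *Pth1r*, and the remaining samples of the days overlapped.

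The mean of *Pthlh* was 1.68 ± 1.54 FPKM (SD, n = 3) on day 10 and 6.31 ± 7.74 FPKM (SD, n = 3) on day 14. Its log2 difference was 1.34 (standard error 0.96, 95% interval −0.85 to 3.54, adjusted p = 0.709 from limma), and the two-sided exact permutation test gave p = 0.5. A single sample carried much of this difference, since it was 0.29 without replicate 3 of day 14 (adjusted p = 0.988 from limma) and 2.26 without replicate 2 of day 14 (adjusted p = 0.293 from limma). The FPKM of *Pth1r* was 396, 170 and 39.2 times that of *Pthlh* in day 10 replicates 1, 2 and 3. On day 14 it was 25.5, 191 and 2.34 times as high. *Pth*, the gene of the circulating hormone, was listed at 0.278 to 1.07 FPKM, which corresponds to between 1 and 3 reads per sample.

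*Vdr*, on chromosome 15 from 97854425 to 97910630 in mm10, encodes the nuclear receptor of active vitamin D. Its levels were 28.1, 37.7 and 15.5 FPKM in day 10 replicates 1, 2 and 3, and 10.9, 37.0 and 7.16 FPKM in day 14 replicates 1, 2 and 3. Replicates 1 and 3 of day 14 were again the lowest of the 6 samples, and replicate 2 was close to the highest day 10 sample. The mean was 27.1 ± 11.1 FPKM (SD, n = 3) on day 10 and 18.3 ± 16.3 FPKM (SD, n = 3) on day 14, from about 205 to 913 reads per sample. The log2 difference was −0.83 (standard error 0.57, 95% interval −2.13 to 0.47, adjusted p = 0.697 from limma), and the two-sided exact permutation test gave p = 0.3. It was −1.52 without replicate 2 of day 14 (adjusted p = 0.136 from limma) and −0.34 without replicate 3 of day 14 (adjusted p = 0.970 from limma).

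The enzymes that make and destroy active vitamin D were both near the limit of detection. *Cyp24a1*, on chromosome 2 from 170482708 to 170497145 in mm10, encodes the inactivating enzyme and is among the best known VDR target genes. It had 5 reads in each day 10 sample, at 0.330, 0.294 and 0.208 FPKM, and 12, 0 and 3 reads in day 14 replicates 1, 2 and 3, at 0.849, 0 and 0.137 FPKM. The absence of reads in replicate 2 of day 14, a sample with 37.0 FPKM of *Vdr*, allows a level of up to 0.163 FPKM (3 reads), for counting error alone. Without this sample the log2 difference was 0.35. The highest *Cyp24a1* value was in replicate 1 of day 14, the sample with the most genes above 0 (19698, against 16646 to 19208 in the others), and the part of this in the result was not tested. The log2 difference of −0.40 had a 95% interval from −2.40 to 1.59 (adjusted p = 0.933 from limma, exact permutation p = 0.7), which reaches beyond 0 in both directions. On the linear scale its mean was instead slightly higher on day 14 (0.329 ± 0.456 FPKM, SD, n = 3) than on day 10 (0.277 ± 0.0630 FPKM, SD, n = 3).

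*Cyp27b1*, the gene of the activating enzyme, lies on chromosome 10 from 127048250 to 127053006 in mm10. It had 2, 5 and 18 reads in day 10 replicates 1, 2 and 3, at 0.184, 0.410 and 1.04 FPKM. On day 14 it had 8, 8 and 2 reads, at 0.790, 0.609 and 0.128 FPKM, all within the day 10 range apart from the last value. The log2 difference was −0.07 (95% interval −1.80 to 1.67, adjusted p = 0.992 from limma, exact permutation p = 1.0), and −0.29 without replicate 2 of day 14.

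*Casr*, the gene of the calcium-sensing receptor, lies on chromosome 16 from 36493696 to 36562141 in mm10. It had 3, 7 and 7 reads on day 10, at 0.141, 0.294 and 0.208 FPKM, and 6, 3 and 2 reads on day 14, at 0.303, 0.117 and 0.0654 FPKM. The log2 difference was −0.34 (95% interval −1.86 to 1.19, adjusted p = 0.921 from limma, exact permutation p = 0.5), and −0.25 without replicate 2 of day 14. These levels were in the range of genes of cell types that the sort should lack. The 8 keratinocyte markers, for example, ran from 0 to 1.46 FPKM across the samples, with *Krt5* between 0 and 0.194 FPKM. The data do not show whether the few reads of *Cyp24a1*, *Cyp27b1* and *Casr* came from OBs.

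**Figure D2:**
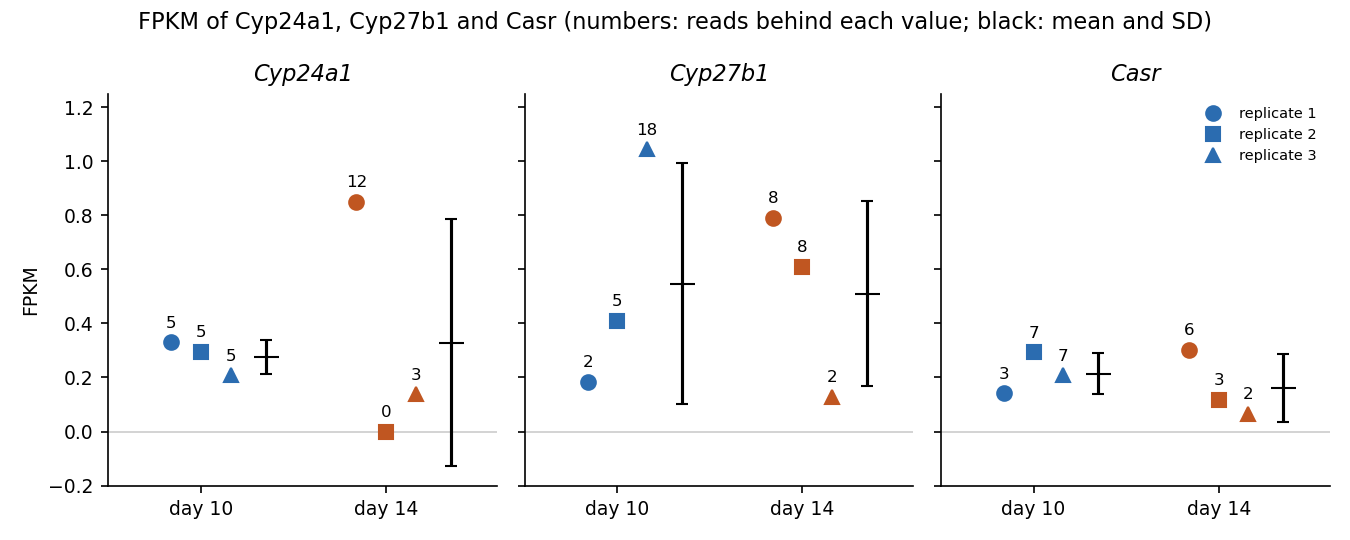
FPKM (linear vertical axis, shared by the 3 panels) of *Cyp24a1*, *Cyp27b1* and *Casr* by day. Each marker is a sample, the number above it is the estimated reads behind the value, and the black bars are the mean and SD. Every value rests on 18 reads or fewer, and the days overlap for each gene.

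The order of *Pth1r*, *Vdr* and *Pthlh* was nearly fixed within samples, and that of the 3 lowest genes rested on few reads. By the mean over the 6 samples, *Pth1r* (138 FPKM) was followed by *Vdr* (22.7 FPKM), *Pthlh* (3.997 FPKM), *Cyp27b1* (0.528 FPKM), *Cyp24a1* (0.303 FPKM) and *Casr* (0.188 FPKM). *Pth1r* was above each of the other members in 6 of 6 samples. *Vdr* was above *Pthlh* in 5 of 6 samples, with replicate 3 of day 14 as the exception. *Pthlh* was above each of the 3 lowest genes in 6 of 6 samples. The neighbours *Cyp27b1* and *Cyp24a1* did not differ beyond their spread, since each was the higher in 3 samples. *Cyp27b1* was above *Casr* in 6 and *Cyp24a1* above *Casr* in 5 of 6 samples. However, *Cyp24a1* and *Casr* were almost equal in day 10 replicates 2 (both 0.294 FPKM) and 3 (both 0.208 FPKM).

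All 6 members passed the filter of a mean above 0.1 FPKM and were tested. Of these, 0 had an adjusted p under 0.05 from limma, where 0.0154% of the 19526 genes tested had one, and 1 had an unadjusted p under 0.05. In 0 of the 6 did the samples of the days separate fully, against 14.3% of all genes tested. The day 14 mean on the log2 scale was lower for 5 members and higher for 1, *Pthlh*. It was lower for 10441 of the 19526 genes tested. The median difference was −0.37 for the members, beside −0.04 over all genes tested. Of the 5 lower members, *Cyp24a1*, *Cyp27b1* and *Casr* rested on 18 reads or fewer in any sample.

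**Figure D3:**
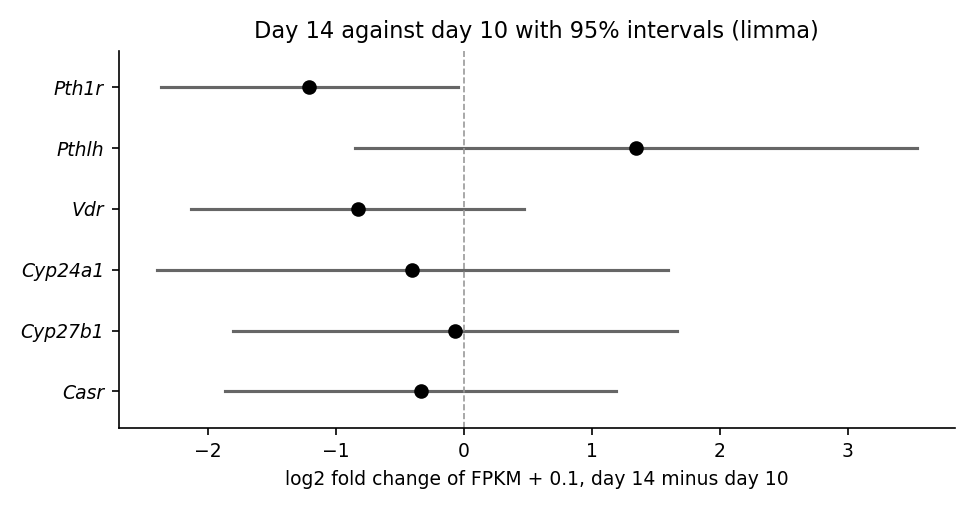
Log2 fold change of FPKM + 0.1 (horizontal axis, day 14 minus day 10) of the 6 members from limma, where points are the estimates and lines the 95% intervals without adjustment for the number of genes. The interval of *Pth1r* ends at −0.05, just below 0, and the other 5 intervals include 0.

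The sample profiles of *Pth1r* and *Vdr* were alike. Both were lowest in replicate 3 of day 14, next lowest in replicate 1 of day 14, then in replicate 3 of day 10, and high in the other 3 samples. The ratio of *Pth1r* to *Vdr* stayed between 4.395 and 8.83, whereas *Pth1r* itself spanned 6.97 times and *Vdr* 5.26 times from the lowest to the highest sample. Relative to *Runx2*, an OB transcription factor gene chosen for this after the values were seen, *Pth1r* ranged from 5.09 to 10.7 and *Vdr* from 1.02 to 1.91, spans of 2.10 and 1.87 times. Relative to *Col1a1*, the spans were wider, at 3.601 times for *Pth1r* and 3.47 times for *Vdr*. Profiles were compared by the root-mean-square difference of log2(FPKM + 0.1), each gene centred on its mean over the 6 samples, among the genes with a mean of at least 1 FPKM. The difference between *Pth1r* and *Vdr* was 0.413, which put *Vdr* at position 114 of 11161 genes in likeness to *Pth1r*. *Pthlh* stood at position 10978 by the same measure, with a difference of 2.39.

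Among the 3 genes most like *Pth1r* were *Lmo7* (0.0760) and *Plxnb1* (0.144), the latter a semaphorin receptor gene. *Lmo7* measured 6.33, 4.65 and 4.05 FPKM in the day 10 samples and 2.08, 4.83 and 0.912 FPKM in those of day 14. Closest to *Vdr* were *Cspg4* (0.166), which encodes a membrane proteoglycan, the Wnt inhibitor gene *Wif1* (0.169) and *Smad6* (0.169), an inhibitor of BMP signalling. *Wif1* measured 80.5, 134 and 51.9 FPKM in the day 10 samples and 27.1, 114 and 20.3 FPKM in those of day 14. Nearest to *Pthlh* were *Pla2g7* (0.439), *Pi16* (0.461) and *Clec3b* (0.529). *Pi16*, a gene known from fibroblasts of vessel walls and connective tissue, measured 8.21, 12.7 and 27.9 FPKM in the day 10 samples and 45.7, 10.7 and 87.4 FPKM in those of day 14. Likeness over 6 samples describes these libraries and was not tested.

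Markers of cell types also differed between the samples. The summed FPKM of the 9 OB markers was 71315, 76098 and 39665 in day 10 replicates 1, 2 and 3 and 30949, 53324 and 26360 in day 14 replicates 1, 2 and 3, lowest where *Pth1r* and *Vdr* were lowest. Most of these sums came from *Col1a1*, *Col1a2* and *Ibsp*. By the mean log2(FPKM + 0.1) of the 9 markers, replicates 1 (7.71) and 3 (6.85) of day 14 were also the lowest. The 13 chondrocyte markers summed to 436 to 877 FPKM on day 10. On day 14 they summed to 119, 1116 (688 of it from *Col2a1*) and 74.1 FPKM in replicates 1, 2 and 3. *Pth1r* is also known from growth plate chondrocytes. Conversely, the 10 myeloid markers summed to 41.2 to 153 FPKM on day 10 and to 255, 21.5 and 617 FPKM on day 14. Of the 617 FPKM in replicate 3 of day 14, 454 FPKM came from *Lyz2*. *Ptprc*, the gene of the gated CD45, was between 0.134 and 2.99 FPKM. The 6 fibroblast markers, of which *Pi16* is one, summed to 2183 to 2822 FPKM on day 10 and to 2820, 3213 and 3574 FPKM on day 14, highest in the sample with the highest *Pthlh*. Most of these sums came from *Dcn*, which was highest in replicate 2 of day 14 (2808 FPKM), where *Pthlh* was low (0.904 FPKM). Markers of other types were low, with sums of 1.54 to 4.52 FPKM for 8 keratinocyte and 0.304 to 9.16 FPKM for 6 skeletal muscle genes. The sums of 3 lists separated the days, all higher on day 14. They were 447 to 490 and 628 to 676 FPKM on day 10 and day 14 for the 8 osteoclast markers, most of it from *Ctsk* (403 to 425 and 574 to 614 FPKM). Single osteoclast markers went both ways, since *Ctsk* was higher and *Ocstamp* lower on day 14, each without overlap. The corresponding sums were 1.98 to 4.34 and 5.33 to 10.2 FPKM for 8 endothelial markers, and 10.7 to 18.2 and 18.8 to 31.8 FPKM for 6 adipocyte markers. Most of the adipocyte sum came from *Fabp4* (8.48 to 16.9 and 15.2 to 30.7 FPKM). By the mean log2(FPKM + 0.1) of a list, the days overlapped for the osteoclast and adipocyte lists and separated for the endothelial list. The 5 osteocyte markers summed to 260 to 1059 FPKM on day 10 and to 200 to 528 FPKM on day 14. The part of these cell types in the levels of the members was not tested.

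**Figure D4:**
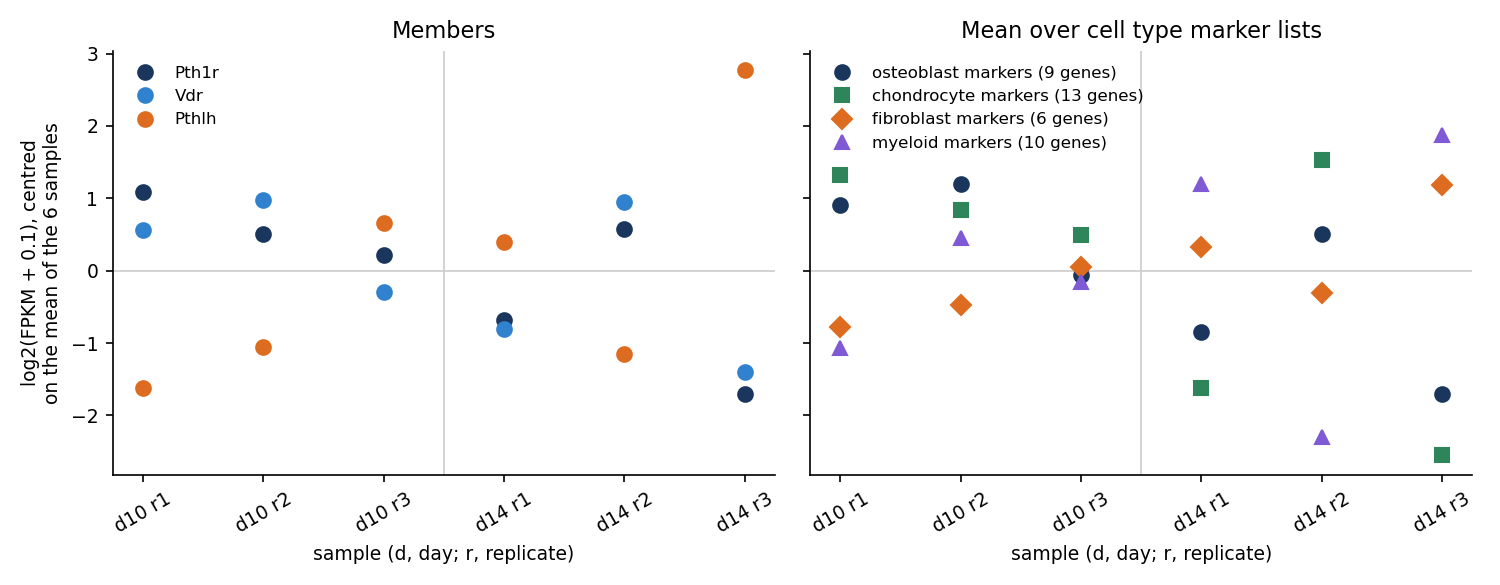
Left, log2(FPKM + 0.1) of *Pth1r*, *Vdr* and *Pthlh* in the 6 samples (horizontal axis), each gene centred on its mean over the samples. Right, the mean log2(FPKM + 0.1) of 4 marker lists centred in the same way. *Pth1r*, *Vdr* and the OB markers are lowest in replicate 3 of day 14, where *Pthlh* and the fibroblast and myeloid markers are highest.

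The surrounding pathways were described with 6 lists of 77 different genes, of which 74 passed the filter. Of these, 0 had an adjusted p under 0.05 from limma, and 8 had an unadjusted p under 0.05, 6 of them higher and 2 lower on day 14. Among all genes tested, 5.60% had such a p and were higher and 4.40% had such a p and were lower. The count was 3 without replicate 1 of day 10 and 6 to 8 when any other sample was left out. Without replicate 2 of day 14 it was 6, 4 higher (*Arrb2*, *Pde4b*, *Crem* and *Calcrl*) and 2 lower (*Gna11* and *Ramp1*), beside 7.01% and 5.99% of the 19674 genes tested then. The smallest adjusted p in the lists was 0.340 from limma, that of *Crem*.

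The PTH list held 20 ligand, receptor and signal transduction genes, of which 18 were tested. *Gnas*, the gene of the stimulatory G protein subunit that couples the PTH receptor to cyclic AMP, was the most abundant, at 597 to 727 FPKM in the day 10 samples and 417 to 638 FPKM in those of day 14. *Gna11*, a Gq family subunit, measured 54.4, 45.7 and 39.1 FPKM in the day 10 samples and 26.4, 37.7 and 35.0 FPKM in those of day 14, and its days did not overlap (log2 difference −0.49, adjusted p = 0.449 from limma). *Arrb2*, a β-arrestin that desensitizes the receptor, was at 0.422 to 0.836 FPKM in the day 10 samples and 0.887 to 2.30 FPKM in those of day 14 (log2 difference 1.14, adjusted p = 0.492 from limma). These were the 2 genes of the list with an unadjusted p under 0.05, where 10.0% of all genes tested had one. The median difference of the list was 0.18. *Pth2* was listed at 0 in all samples and the second PTH receptor gene *Pth2r* at no more than 0.0925 FPKM, far below *Pth1r* in each sample.

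Of 13 genes known to respond to PTH in OBs, 4 had an unadjusted p under 0.05 from limma, all higher on day 14. Over all genes tested, 5.60% had such a p and were higher and 4.40% had one and were lower. The median difference was 0.45 in the list and −0.04 over all genes tested. Without replicate 2 of day 14 only *Crem* of this list had such a p (log2 difference 0.62, adjusted p = 0.319 from limma), and the median of the list was 0.20. *Crem*, a repressor of cyclic AMP responses that is itself induced by them, measured 7.91, 9.98 and 8.05 FPKM in the day 10 samples and 10.9, 18.4 and 16.2 FPKM in those of day 14. Its log2 difference was 0.78 (standard error 0.23), and the days did not overlap. *Areg*, the gene of the growth factor amphiregulin, measured 3.29, 2.02 and 6.47 FPKM in the day 10 samples and 5.52, 12.6 and 10.7 FPKM in those of day 14 (log2 difference 1.34, adjusted p = 0.385 from limma). *Tnfsf11*, which encodes the osteoclast-inducing cytokine RANKL, measured 15.3, 22.2 and 15.6 FPKM in the day 10 samples and 22.5, 33.0 and 23.7 FPKM in those of day 14 (log2 difference 0.58, adjusted p = 0.434 from limma). The fourth was *Lif* (log2 difference 0.75, adjusted p = 0.443 from limma). *Fos*, the most abundant gene of the list, was at 1256 to 1965 FPKM in the day 10 samples and 1300 to 1702 FPKM in those of day 14. No gene of this list passed adjustment over all genes, and the order of samples by *Crem* or *Tnfsf11*, both highest in replicate 2 of day 14, was not that of *Pth1r*.

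The 8 genes of vitamin D transport and activation were low apart from *Fdx1* and *Fdxr*, which supply electrons to mitochondrial P450 enzymes and serve steroid synthesis as well. *Fdx1* measured 8.75, 13.1 and 7.66 FPKM in the day 10 samples and 11.7, 13.7 and 20.6 FPKM in those of day 14 (log2 difference 0.63, adjusted p = 0.496 from limma). Among the 7 genes tested it alone had an unadjusted p under 0.05, which was 0.0596 without replicate 2 of day 14, and the median difference was 0.01. *Cyp2r1*, an enzyme of the first activation step, was at 0.399 to 1.07 FPKM. *Gc*, the gene of the vitamin D binding protein of serum, was listed at 0 in 4 of the samples and did not pass the filter.

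The partners of VDR were present throughout. Of 11 genes, 0 had an unadjusted p under 0.05, and the median difference was 0.07. *Rxrb* was at 11.4 to 19.7 FPKM and *Rxra* at 4.36 to 7.60 FPKM, while *Rxrg* was listed at 0 in 3 of the samples and reached 0.447 FPKM. The coactivator gene *Ncoa3* had the smallest p of the list (log2 difference 0.41, adjusted p = 0.523 from limma). *Pdia3*, an endoplasmic reticulum enzyme that has also been described as a membrane binding protein for vitamin D, was the most abundant, at 384 to 532 FPKM.

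Among 9 genes known to respond to vitamin D, *Tnfsf11* alone had an unadjusted p under 0.05, which was 0.0941 without replicate 2 of day 14, and the median difference was −0.04. *Spp1*, which encodes the bone matrix protein osteopontin, measured 8243, 9663 and 3583 FPKM in the day 10 samples and 4397, 10176 and 2230 FPKM in those of day 14 (log2 difference −0.51, adjusted p = 0.862 from limma). It was lowest in replicate 3 of day 14, as *Vdr* was, and highest in replicate 2 of day 14. The calcium transport genes *Trpv5*, *Trpv6*, *S100g* and *Calb1*, known vitamin D targets of gut and kidney, were at most 0.823, 0.450, 1.61 and 0.410 FPKM.

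The calcium sensing list held 19 genes, including the G protein and phospholipase output of the receptor and the calcitonin family. Of these, 2 were lower with an unadjusted p under 0.05, *Gna11* and *Ramp1*, where 4.40% of all genes tested were. *Ramp1*, a partner protein of calcitonin family receptors, measured 80.9, 61.8 and 30.8 FPKM in the day 10 samples and 18.3, 38.0 and 8.45 FPKM in those of day 14 (log2 difference −1.56, standard error 0.53, adjusted p = 0.396 from limma), and the days overlapped. Without replicate 2 of day 14 its difference was −2.10 (adjusted p = 0.102 from limma). The median difference of the list was −0.02. *Calm2*, a calmodulin gene, was the most abundant at 398 to 484 FPKM, and *Ap2s1*, an adaptor subunit that acts in the uptake of the calcium-sensing receptor, was at 60.0 to 65.7 FPKM. *Gprc6a*, the nearest relative of *Casr* in calcium sensing, was at 0 to 1.07 FPKM.

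**Figure D5:**
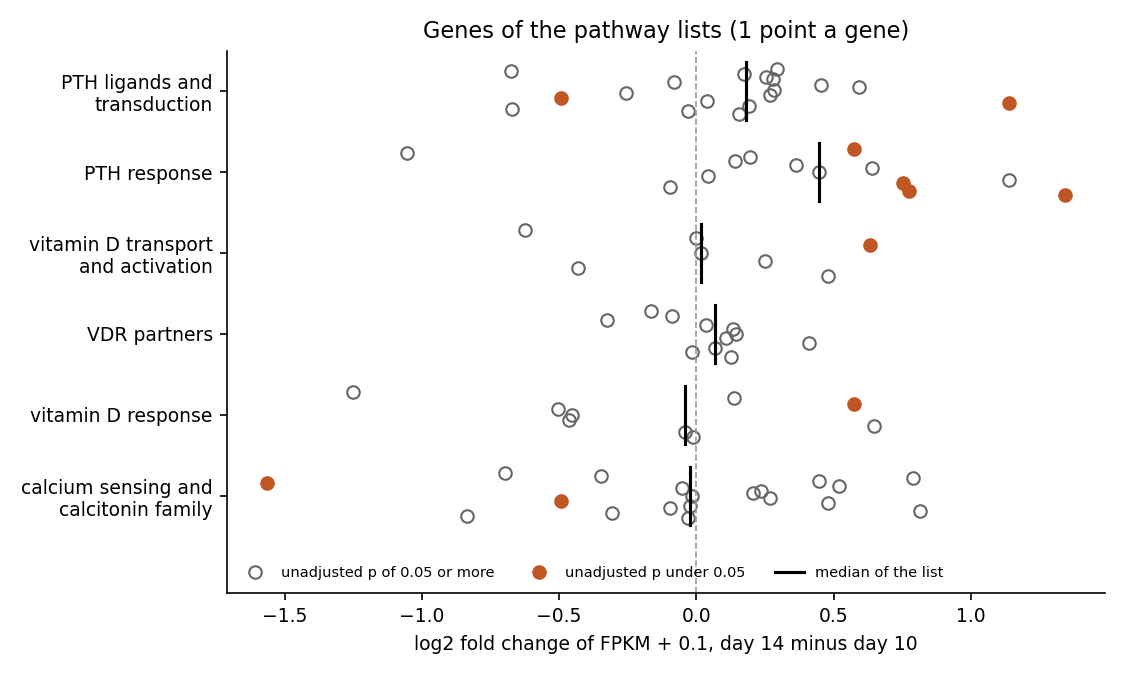
Log2 fold change of FPKM + 0.1 (horizontal axis, day 14 minus day 10) of the tested genes of 6 pathway lists, where each circle is a gene, filled circles have an unadjusted p under 0.05 from limma, and black lines are list medians. *Tnfsf11*, *Gnaq* and *Gna11* appear in 2 lists each. The PTH response list has 4 filled circles, all above 0, where 5.60% of all genes tested had such a p and were higher. The list medians lie between −0.04 and 0.45.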

How the data were processed

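Libraries were sequenced as single-end reads of 75 bases. The authors aligned these against mm10 with TopHat2 2.0.13, Bowtie2 2.2.3 and SAMtools 0.1.19, and deposited FPKM per gene computed with Cufflinks 2.2.1, in 1 file per sample. The gene annotation is not given in the sources used here. In 1 file, 25 symbols turned into dates were restored by position, none of them a gene named here. Depth was estimated from 0.3 FPKM downwards in genes with 1 GENCODE vM21 transcript of 1500 to 8000 bases, with a fragment length of 220 bases, where between 74.7% and 79.7% of the values came out within 0.1 of whole reads. Days were compared with limma 3.58.1 in R 4.3.3 on log2(FPKM + 0.1), with a mean-variance trend, over 19526 genes with a mean above 0.1 FPKM, with Benjamini-Hochberg adjustment over all of them. Single genes were also compared by exact permutation of the samples (scipy 1.17.1). Named pathway genes are those of highest mean, smallest p and largest change in a list, and any other list gene was chosen after its values were seen. The members and lists were chosen with earlier results of these data known. Coordinates count from 1, and upstream sequences are those of RefSeq. Of the genes with the nearest profiles, 1 is not reported here.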

Additional observations from a re-analysis of the deposited data

How the results depend on the processing

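The direction of *Pth1r*, *Pthlh*, *Vdr* and *Casr*, and an adjusted p above 0.05, were kept under each alternative run (pseudocounts of 1 and 0.01, no filter or a mean above 1 FPKM, another scaling, no variance trend, a replicate block, and leaving out each sample). Unadjusted p-values from limma crossed 0.05 for *Pth1r* (0.101 without the trend, 0.118 without a filter, 0.0552 at a mean above 1 FPKM, up to 0.140 with a sample left out), and for *Pthlh* and *Vdr* with the block (0.0317 and 0.0194) and without replicate 2 of day 14 (0.0268 and 0.00358). With samples left out in turn, the log2 difference ran from −1.80 to −0.66 for *Pth1r*, 0.29 to 2.26 for *Pthlh*, −1.52 to −0.34 for *Vdr*, −0.70 to −0.06 for *Casr*, −1.28 to 0.35 for *Cyp24a1* and −0.54 to 0.53 for *Cyp27b1*. *Cyp24a1* changed sign with a pseudocount of 1 (0.0056) and without replicate 2 of day 14 (0.35), and *Cyp27b1* without replicate 3 of day 10 (0.46) or of day 14 (0.53), and the cause was not tested. The filter at a mean of 1 FPKM left no value for *Cyp24a1*, *Cyp27b1* or *Casr*. Between 3 and 76 genes of all tested had an adjusted p under 0.05 from limma when a sample was left out, the most without replicate 2 of day 14. The count of pathway genes with an unadjusted p under 0.05 was 3 without the trend, 4 without a filter, and 3 to 8 with a sample left out, against 8.

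Same-numbered samples of the days correlated across genes in their deviations from the day means with r of 0.058, −0.0058 and 0.0887, so the shared numbers were not taken as pairs. With the replicate number as a block, the log2 differences of *Pth1r* (−1.21), *Pthlh* (1.34) and *Vdr* (−0.83) had adjusted p-values of 0.329, 0.390 and 0.342 from limma, 2 genes of all tested had an adjusted p under 0.05, and no call of a member changed. At 0 to 18 reads per sample, the depth limits what *Cyp24a1*, *Cyp27b1* and *Casr* can show.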
